A study of Mus musculus with 2 samples.

Results

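Neurons and glia sense transmitters through receptors built from subunits, each encoded by its own gene. The genes described here are the 64 of 33207 counted mouse genes whose symbols name an AMPA, kainate or NMDA subunit (Gria, Grik, Grin), a metabotropic glutamate receptor (Grm), a GABA-A subunit (Gabr), a glycine receptor subunit (Glra, Glrb) or a nicotinic acetylcholine receptor subunit (Chrn). They were picked by symbol and not by their level, although earlier results of these data were known when the rule was set. The cells came from mouse embryos that carried Egr2-Cre with a Cre-dependent Tomato reporter at Rosa26 (genotype Egr2,R26mT in the labels), in which Egr2, a gene of boundary cap cells where nerve roots meet the neural tube, drives Cre. Tomato-positive cells were sorted from dissected meninges and dorsal root ganglia of E11.5 and E12.5 embryos and profiled with a droplet 3′ assay that counts captured RNA molecules by unique molecular identifiers (UMIs). Both stages share the alleles and the sort, which also left out dead cells and doublets, and Tomato also marks the descendants of cells that once expressed Egr2.

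Each stage was 1 library, made by pooling the labelled cells of 1 litter. There is therefore no replicate, no test was run, and stage, litter and library cannot be told apart. Every interval given is an exact 95% interval for counting error only, and a number of cells is not a number of embryos. The E11.5 library held 10287595 UMIs in 1431 barcodes, of which 833 were kept, and the E12.5 library 23460243 UMIs in 3762 barcodes, of which 3496 were kept (median 11601 and 6140 UMIs per kept cell). The libraries shared 9 barcodes.

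Ionotropic glutamate receptors of the AMPA, kainate and NMDA types are cation channels, while metabotropic receptors act through G proteins. GABA-A and glycine receptors are chloride channels, and nicotinic receptors are cation channels opened by acetylcholine. Sensory neurons of the dorsal root ganglion release glutamate and are known to carry receptors for glutamate, GABA and acetylcholine, and peripheral glia are known to carry transmitter receptors too.

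Cells were classed by their UMIs of 3 genes. Isl1-positive neurons held 1 or more UMIs of Isl1, a transcription factor of sensory neurons, and none of Sox10 or Prss56 (202 cells at E11.5, 1318 at E12.5). Sox10-positive glia held Sox10, the transcription factor of neural crest and glia, without the other two (297 and 838 cells). Prss56-positive glia held Prss56, a marker of boundary cap cells, together with Sox10 and without Isl1 (116 and 375 cells). The median depth was 11598, 11913 and 13756 UMIs per cell in these classes at E11.5 and 6472, 6221 and 5698 at E12.5. A level is the UMIs of a gene summed over a class per 1000000 UMIs of that class (CPM), and a gene was compared where the classes together held at least 20 of its UMIs. A difference was counted where the ratio reached 2 in either direction. The share over all genes compared is given beside such counts, except under alternative settings and for gene lists between the glia classes. All genes compared were not matched to the subunit genes in level, and the part of counting error in the counts was not tested. The minimum falls on the UMIs of both sides together, so a rare gene can pass it through the larger side alone.

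The labels call the sorted cells boundary cap cells, but Isl1-positive neurons made up 24.2% and 37.7% of the kept cells of the 2 libraries. All 10 neuronal markers were more than 2-fold higher in Isl1-positive neurons than in Sox10-positive glia at both stages, and all 8 glial markers more than 2-fold lower. Egr2 itself stood at 23.0 and 21.6 CPM in Sox10-positive glia and at 45.0 and 59.6 CPM in Prss56-positive glia. The 5 boundary cap markers summed to 237 CPM in Sox10-positive glia and 331 CPM in Prss56-positive glia at E11.5, and to 391 and 509 CPM at E12.5, and 0 and then 2 of the 4 compared were at least 2-fold higher in the Prss56-positive class. The 8 markers of spinal progenitors and motor neurons summed to 42.7 and 69.5 CPM in neurons, beside 2.33 and 2.38 CPM in Sox10-positive glia. Isl2, which sensory neurons also express, gave 41.4 and 67.8 CPM of these sums, while Mnx1 of motor neurons was at 0 at both stages and Chat, the enzyme that makes acetylcholine, stood at 0 and 0.337 CPM. At E12.5 the Isl1-positive class held 4748 UMIs of 6 erythroid genes, 4685 of them in 1 cell, and the summed level of 5 myeloid genes was 25.03 CPM there and 7.32 CPM in Sox10-positive glia. Requiring UMIs of 2 of 6 neuronal genes, a step taken only once the values were known, removed 11 and 40 neurons at the respective stages. Subunit genes counted as lower in neurons than in Sox10-positive glia at E12.5 then numbered 6 and not 7, those lower in neurons at E12.5 than at E11.5 numbered 1 and not 2, and the other counts of subunit genes were equal.

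The upstream sequences of 3 glutamate receptor genes are shown because these genes stand for the patterns described next: Grik3, with 15 UMIs in neurons and 0 in both glial classes at E11.5 and 110, 7 and 1 in the respective classes at E12.5 (cells positive for both Isl1 and Sox10, left out of the classes, held 15 and 13), Gria3, with the lowest ratio of neurons to glia at both stages, and Gria2, which differed most between the stages in glia. Each is the 250 bases before the canonical start site, read 5′ to 3′ on the gene's strand from the GRCm39 (mm39) genome with the GENCODE M39 annotation, and none overlaps an annotated exon. Capitals mark a CAGATG match, an E-box bound by basic helix-loop-helix factors.
Grik3, chr4:125383952-125384201, + strand: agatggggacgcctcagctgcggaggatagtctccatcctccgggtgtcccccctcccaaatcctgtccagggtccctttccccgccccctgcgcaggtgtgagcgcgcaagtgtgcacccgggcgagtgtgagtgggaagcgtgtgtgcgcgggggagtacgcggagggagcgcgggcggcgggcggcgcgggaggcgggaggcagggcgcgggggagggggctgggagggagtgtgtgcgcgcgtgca
Gria3, chrX:40489226-40489475, + strand: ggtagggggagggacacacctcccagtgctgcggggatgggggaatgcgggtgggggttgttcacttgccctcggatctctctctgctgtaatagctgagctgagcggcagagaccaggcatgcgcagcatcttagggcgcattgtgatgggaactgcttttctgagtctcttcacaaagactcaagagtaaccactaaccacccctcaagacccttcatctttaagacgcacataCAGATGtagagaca
Gria2, chr3:80710539-80710788, - strand: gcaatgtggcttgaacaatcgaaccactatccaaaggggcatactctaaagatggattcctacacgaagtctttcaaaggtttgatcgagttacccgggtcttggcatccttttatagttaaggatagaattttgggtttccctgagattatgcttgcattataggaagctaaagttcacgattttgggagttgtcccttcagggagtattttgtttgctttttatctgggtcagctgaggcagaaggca
The GC content was 73.2% before Grik3, 54.4% before Gria3 and 42.4% before Gria2, beside a median of 56.2% for the 64 genes and 53.2% for all protein-coding genes. A CAGATG on either strand lay in 6.25% of the 64 windows and 13% of 21738 protein-coding windows of that length. TAATTA, a homeodomain core, lay in 6.25% and 5.16%, and GGACAGC, a piece of the neuron-restrictive silencer element, in 6.25% and 5.57%. A match is a run of letters and not a bound site, and no match says only that these letters are not in this window.

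The subunit genes were rare transcripts. In the 3 classes together they held 2403 UMIs in the E11.5 library and 6813 in the E12.5 library. Of the 64 genes, 17 reached 20 UMIs in the earlier library and 29 in the later, 7 and 13 reached 100, and 35 stayed under 20 in both libraries. Grm6, Gabra6, Gabrd, Chrna10, Chrna2, Chrna6 and Chrnb3 had no UMI in any barcode of either library. The 16 genes that met the rule for description by name, which had 100 UMIs in a library, led their family or differed between the glia classes, held 88.3% and 87.5% of the subunit UMIs. Their genes are long, with a median span of 232.9 kb beside 35.4 kb for the other 48. Cell Ranger, the counting software, counts reads in introns by default in its recent versions. Whether that was kept is not given in the sources used here, and the part of gene length in these counts was not tested.

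Summed over all 64 genes, Isl1-positive neurons held 289.6 CPM (268.1 to 312.3) at E11.5 and 359 CPM (347 to 372) at E12.5. Sox10-positive glia held 343 CPM (324 to 363) and 414 CPM (397 to 431), and Prss56-positive glia 340.1 CPM (312 to 369.7) and 571 CPM (541 to 602). The ratio of neurons to Sox10-positive glia was 0.844 (0.766 to 0.929) at E11.5 and 0.869 (0.823 to 0.917) at E12.5. With median-of-ratios scaling the ratio at E12.5 was 0.993, so the size of this difference rests on the scaling. That scaling shifted the median log2 ratio of all genes by 0.13 and 0.19 at the respective stages.

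The families divided between the classes. AMPA subunits, which carry fast glutamate responses, stood at 16.8 CPM in neurons, 47.1 CPM in Sox10-positive glia and 67.8 CPM in Prss56-positive glia at E11.5, and at 25.9, 103.1 and 164 CPM at E12.5. Kainate subunits gave 84.6, 188 and 161 CPM at E11.5 and 108, 209 and 269 CPM at E12.5. Glycine receptor subunits were also lowest in neurons, with 10.4, 19.2 and 19.1 CPM and then 10.2, 28.9 and 41.0 CPM. These families were lower in neurons than in Sox10-positive glia. The E12.5 ratios were 0.252 (0.215 to 0.294) for AMPA, 0.515 (0.472 to 0.562) for kainate and 0.353 (0.270 to 0.460) for glycine receptors. Cells with collagen markers belong to none of these classes. At E12.5 they held 116.8, 99.4 and 28.7 CPM of AMPA, kainate and glycine receptor subunits. The higher AMPA and glycine receptor levels were thus not particular to glia at E12.5. At E11.5 these cells held 15.5, 59.6 and 22.1 CPM in the same order.

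The other families leaned to neurons. Nicotinic subunits stood at 57.4 CPM in neurons against 8.73 and 8.01 CPM in the glia classes at E11.5, and at 53.7 against 4.94 and 6.76 CPM at E12.5. GABA-A subunits gave 104 against 66.0 and 73.3 CPM, and then 113 against 51.1 and 62.5 CPM. In neurons most GABA-A UMIs came from few of the 19 members, and sums without the largest member were not taken. Metabotropic glutamate receptors gave 9.49 against 3.78 and 2.46 CPM, and then 40.4 against 9.52 and 15.2 CPM. The E12.5 ratios of neurons to Sox10-positive glia were 10.9 (7.37 to 16.6) for nicotinic, 2.21 (1.93 to 2.53) for GABA-A and 4.24 (3.17 to 5.79) for metabotropic receptors. The cells with collagen markers had a higher metabotropic level than neurons, at 42.0 CPM (25.3 to 65.5) at E11.5 and 105 CPM at E12.5. Their nicotinic and GABA-A levels at E12.5 were lower than in neurons, at 11.2 and 34.3 CPM. NMDA subunits stayed between 6.91 and 11.8 CPM in all 3 classes at both stages, and their ratio of 1.18 (0.800 to 1.77) at E12.5 left no direction.

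**Figure D1:**
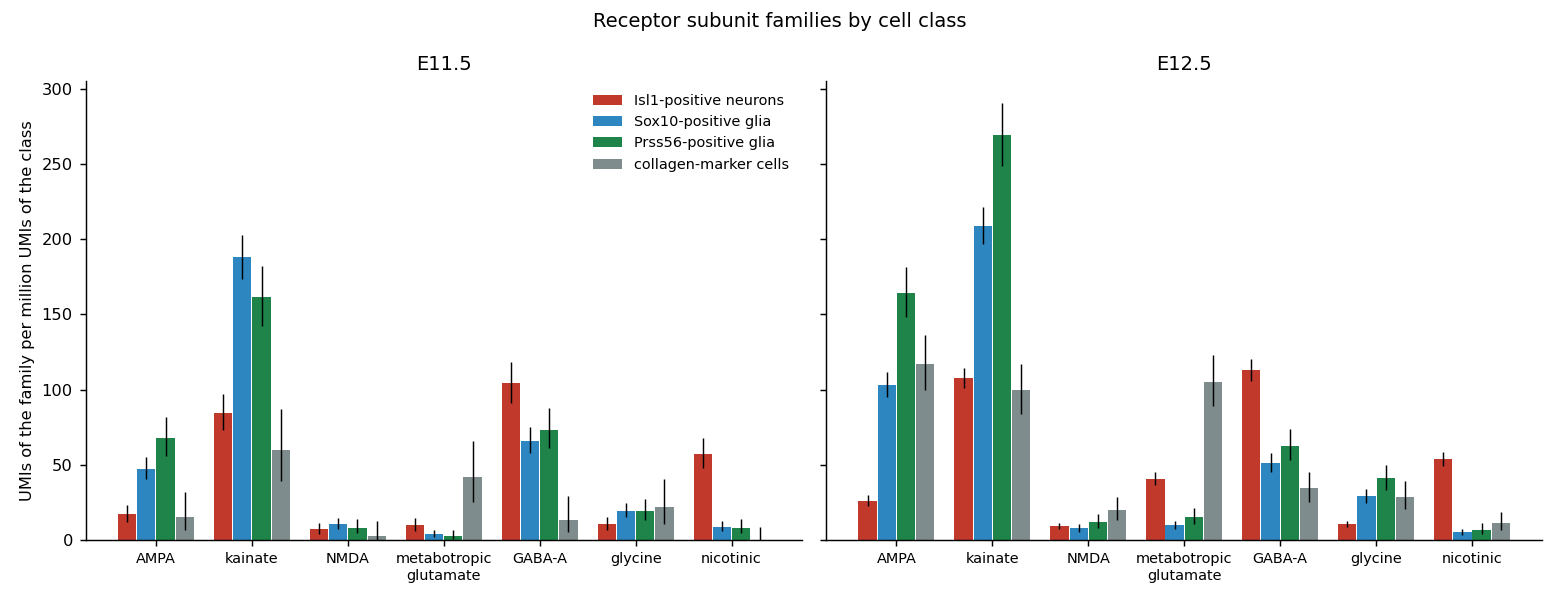
UMIs of each receptor family per 1000000 UMIs of the class (CPM, vertical axis) at E11.5 (left) and E12.5 (right). Bars are class levels with exact 95% counting intervals, and nicotinic subunits stand at 57.4 and 53.7 CPM in neurons and under 9 CPM in both glia classes, while kainate subunits are higher in both glia classes than in neurons.

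Which subunits separated neurons from glia was the first comparison. At E11.5, 4 of the 16 subunit genes compared (25%) were at least 2-fold higher in neurons than in Sox10-positive glia, beside 11.2% of all 11157 genes compared, and 6 (37.5%) were at least 2-fold lower, beside 16.9%. At E12.5, 9 of 28 (32.1%) were higher, beside 13.5% of 13625 genes, and 7 (25%) were lower, beside 20.1%. The median ratio over the compared subunit genes was 0.901 and then 1.26, and over all genes compared 0.928 and 0.920. Of the 16 genes compared at both stages, Chrna3 and Chrnb2 were among those higher in neurons at both and Gria3, Glrb, Grik2 and Grik4 were lower at both.

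**Figure D2:**
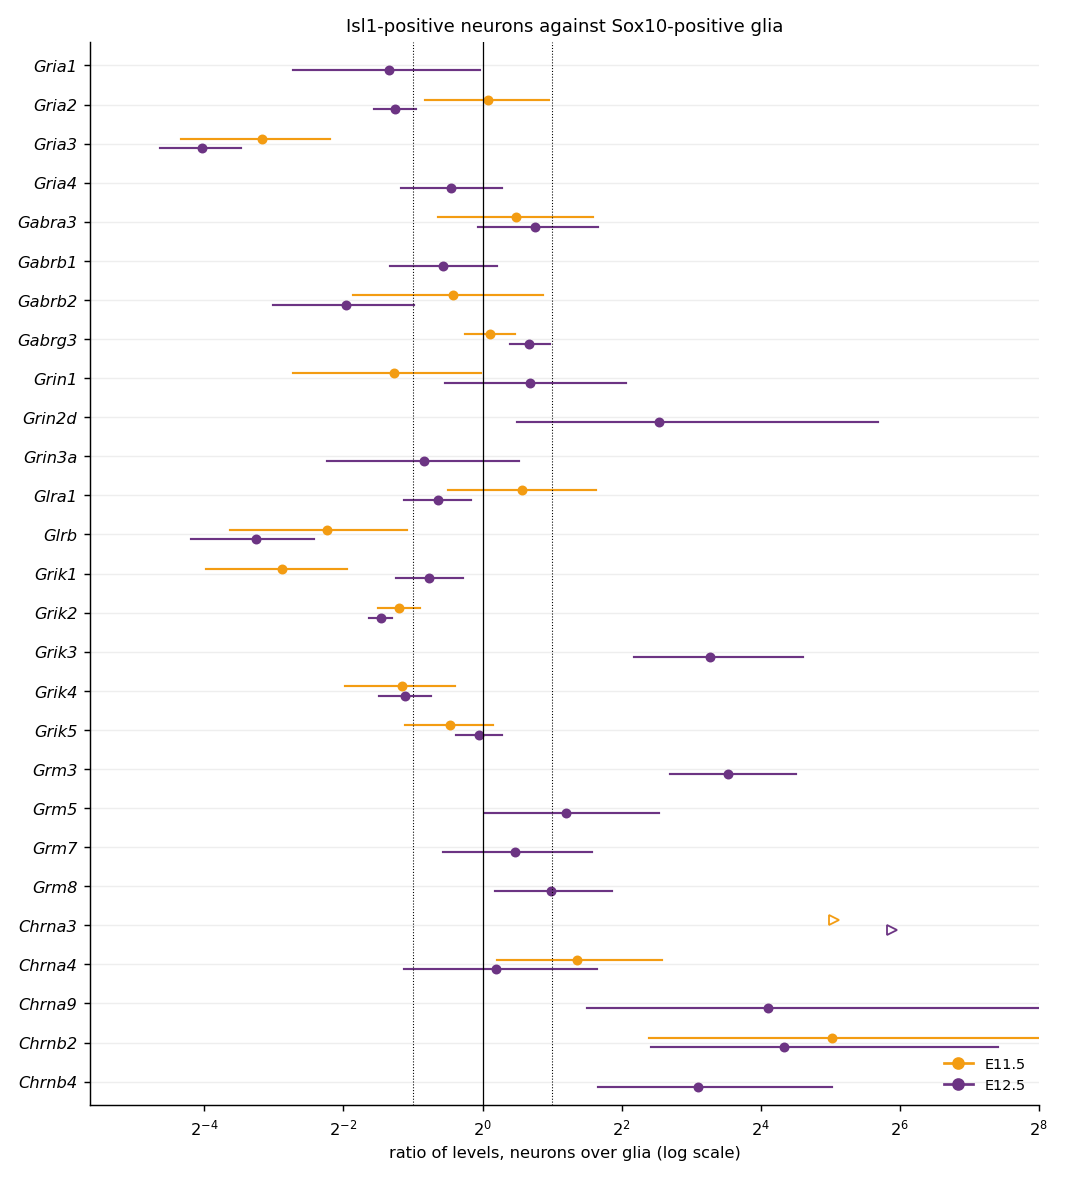
Ratio of the level in Isl1-positive neurons to that in Sox10-positive glia (horizontal axis, log scale) for the reported subunit genes with at least 20 UMIs in the pair of classes. Points are ratios with exact 95% counting intervals (cut at the edge of the axis), open triangles are lower bounds for Chrna3, dotted lines mark 2-fold, and Gria3 and Glrb lie far to the left while Chrna3 and Chrnb2 lie far to the right at both stages.

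Chrna3, the alpha subunit of the ganglionic nicotinic receptor, had the most UMIs of the nicotinic genes. Neurons held 67 UMIs at E11.5 (28.9 CPM, 22.4 to 36.7), then 289 at E12.5 (32.4 CPM, 28.8 to 36.4), and Sox10-positive glia held none at either stage. Against a floor of 3 UMIs in the glia class, its level in neurons was at least 33.1-fold higher at E11.5, and at least 59.1-fold higher at E12.5. Chrna3 was seen in 18.3% of neurons at E11.5 and 17.1% a day later. A UMI of it was seen in 0 of 297 and then 0 of 838 Sox10-positive glia, and in 2 of 375 Prss56-positive glia at E12.5. A floor of 3 cells allows up to 1.01% and 0.358% of Sox10-positive glia to hold a UMI, which does not limit how many cells express the gene. Its partners also stood higher in neurons as a class, which does not place them in the same cells. Chrnb2, a beta subunit, stood at 9.49 CPM in neurons and 0.291 CPM (1 UMI) in glia at E11.5, and at 7.41 and 0.366 CPM (2 UMIs) at E12.5. Chrnb4, the other beta subunit that pairs with Chrna3, stood at 4.75 and 0.873 CPM at E11.5 and at 6.29 and 0.732 CPM at E12.5, where the ratio was 8.58 (3.17 to 32.6). Chrna3, Chrnb4 and Chrna5, an accessory subunit, lie side by side at chr9:54888164-54956076. Chrna5 gave no more than 1 UMI in any of the 3 classes, and it overlaps Chrna3 on the other strand. Chrna9, known from cochlear hair cells, stood at 3.14 CPM in neurons (28 UMIs) and 0.183 CPM in glia (1 UMI) at E12.5. Chrna4, the alpha subunit common in brain, was 2.56-fold (1.16 to 5.96) higher in neurons at E11.5 and gave 1.15 (0.458 to 3.13) at E12.5.

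Gabrg3, a gamma subunit of the GABA-A receptor, had the most UMIs of its family in both glia classes. Gabrg3 was spread over all 3 classes, with 48.8 CPM in neurons, 45.1 CPM in Sox10-positive glia and 57.3 CPM in Prss56-positive glia at E11.5, and 40.6, 25.4 and 38.9 CPM at E12.5. Its ratio of neurons to Sox10-positive glia was 1.08 (0.841 to 1.39) and then 1.60 (1.31 to 1.96), under 2-fold at both stages. Gabra5, an alpha subunit whose gene neighbours it, gave 13 UMIs in neurons and 1 in each glia class at E12.5. Alpha subunits, which complete the usual receptor, were low throughout: the highest, Gabra3, reached 6.47 CPM in neurons at E11.5 and 5.28 CPM at E12.5. Gabrb2, a beta subunit, was lower in neurons, with 1.46 CPM in neurons and 5.68 CPM in glia at E12.5.

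Among kainate subunits, only Grik3 was at least 2-fold higher in neurons, at E12.5. Grik3, a subunit of low agonist affinity, had 15 UMIs in neurons and 0 in both glia classes at E11.5. At E12.5 it had 110 UMIs in neurons (12.3 CPM), 7 in Sox10-positive glia (1.28 CPM) and 1 in Prss56-positive glia, a ratio of neurons to Sox10-positive glia of 9.63 (4.52 to 24.5). Grik2, with the most UMIs of the 64 genes, forms channels alone or with other kainate subunits. It stood at 51.4 CPM (42.5 to 61.5) in neurons and 118 CPM (107 to 130.1) in glia at E11.5, and at 52.2 CPM (47.6 to 57.2) and 144 CPM (134 to 154) at E12.5. The ratio of neurons to glia was 0.435 (0.352 to 0.535) and 0.363 (0.323 to 0.407). Grik4, a high-affinity subunit that needs a partner such as Grik2, followed with 8.2 and 18.3 CPM at E11.5 and 12.01 and 26 CPM at E12.5. Grik1 stood at 4.32 and 31.7 CPM at E11.5, 7.35-fold (3.85 to 15.8) higher in glia, and at 8.19 and 13.9 CPM at E12.5, where the difference was 1.70-fold. Grik5, the other high-affinity subunit, differed little, with E12.5 levels of 22.8 CPM in neurons and 23.6 CPM in glia. Grik2 made up 60.7% of kainate UMIs in neurons and 62.9% in Sox10-positive glia at E11.5, and 48.5% and 69.0% at E12.5.

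Gria3 and Glrb had the lowest ratios of neurons to glia at E12.5. The cells with collagen markers also held more of both than neurons at E12.5, at 36.4 CPM (Gria3) and 15.4 CPM (Glrb). At E11.5 those cells held 4 and 2 UMIs, too few to compare. Gria3, an AMPA subunit, had 9 UMIs in neurons (3.88 CPM) and 120 in Sox10-positive glia (34.9 CPM) at E11.5, and 29 (3.26 CPM) and 290 (53.1 CPM) at E12.5. It was 8.99-fold (4.58 to 20.1) higher in glia at E11.5 and 16.3-fold (11.1 to 24.8) at E12.5, and was detected in 23.5% of glia and 1.82% of neurons at E12.5. Glrb, the beta subunit that anchors glycine receptors, had 7 and 49 UMIs (3.02 and 14.3 CPM) at E11.5 and 14 and 82 UMIs (1.57 and 15.0 CPM) at E12.5, 4.72-fold (2.13 to 12.3) and then 9.56-fold (5.38 to 18.2) higher in glia. Glra1, the alpha subunit that binds glycine, stood at 7.34 and 4.94 CPM at E11.5 and 8.42 and 13.2 CPM at E12.5, so alpha and beta subunits were not distributed alike. Glra1 made up 82.4% (73.0 to 89.6) of glycine receptor UMIs in neurons at E12.5 and 45.6% (37.6 to 53.7) in Sox10-positive glia. Gria2, the AMPA subunit whose edited form blocks calcium entry, stood at 8.63 and 8.14 CPM at E11.5, without a difference past counting error, and at 17.5 and 41.7 CPM at E12.5. Gria1, another AMPA subunit, was lower in neurons at E12.5 on 9 and 14 UMIs, a ratio of 0.394 (0.151 to 0.978). Gria2 made up 67.5% (61.1 to 73.5) of AMPA UMIs in neurons and 40.5% (36.4 to 44.7) in glia at E12.5.

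Grm3, a metabotropic receptor that lowers cyclic AMP, had 226 UMIs in E12.5 neurons (25.4 CPM, 22.2 to 28.9) and 12 in glia (2.20 CPM, 1.14 to 3.84), a ratio of 11.6 (6.48 to 22.7). At E11.5 there were 8 UMIs in neurons and 2 in glia, too few to compare. Grm8, a presynaptic receptor of the same broad class, stood at 6.17 and 3.11 CPM at E12.5, a ratio of 1.98 (1.13 to 3.65). The obligatory NMDA subunit Grin1 gave 7 UMIs in neurons and 25 in glia at E11.5, but 1 glial cell held 10 of the 25, and at E12.5 it gave 21 and 8 UMIs. Its ratios lay on opposite sides of 1, at 0.416 (0.152 to 0.988) and 1.61 (0.685 to 4.20). Grm5, a receptor coupled to calcium release, was 2.30-fold (1.03 to 5.80) higher in E12.5 neurons on 30 and 8 UMIs. Grin2d, another NMDA subunit, was 5.82-fold (1.41 to 51.6) higher in E12.5 neurons on 19 and 2 UMIs. Grin2a, Grin2b and Grin2c stayed under 20 UMIs over the 3 classes in both libraries.

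**Figure D3:**
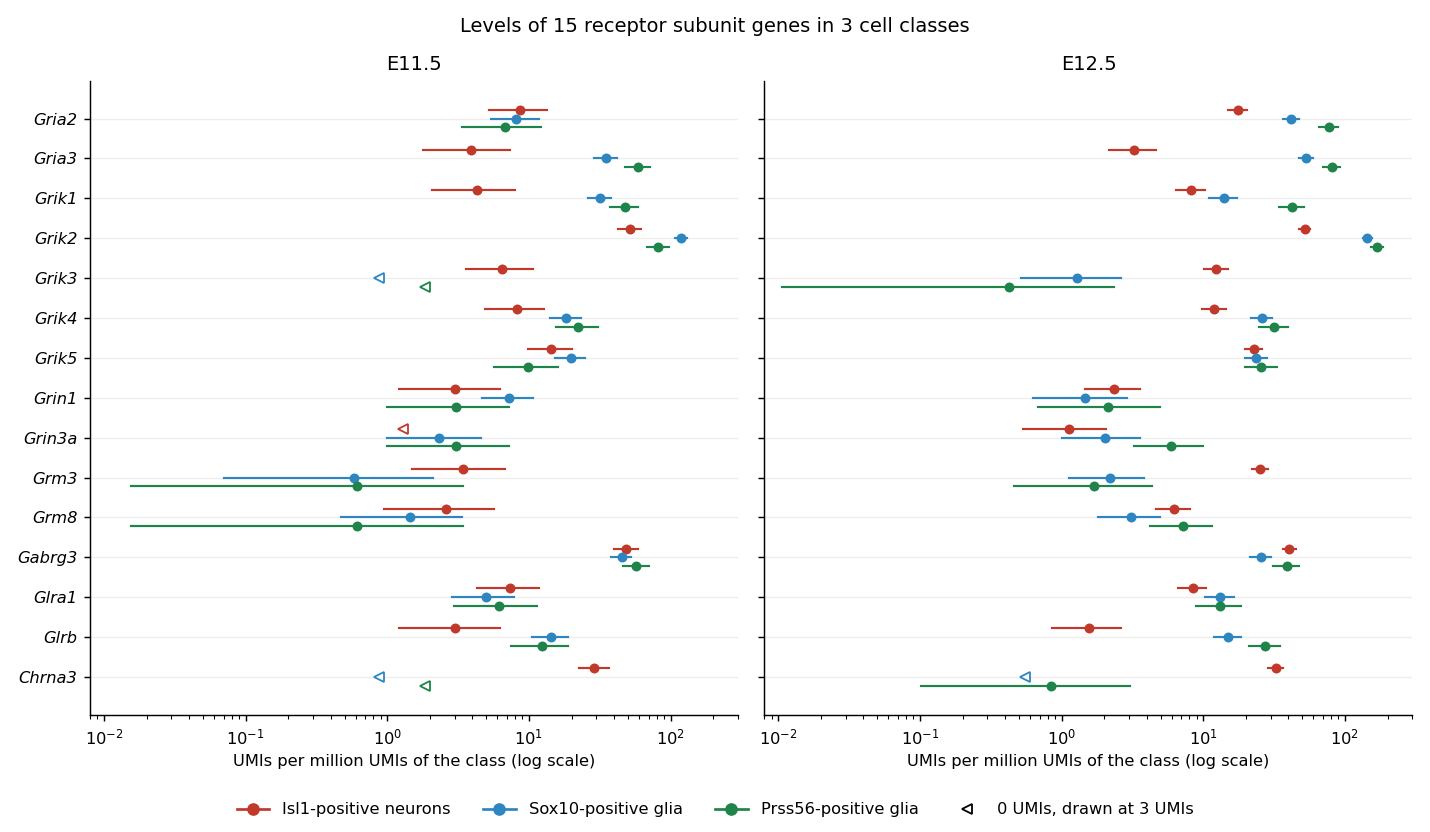
Level of the named genes (CPM, UMIs per 1000000 UMIs of the class, log scale) in neurons, Sox10-positive glia and Prss56-positive glia at E11.5 (left) and E12.5 (right). Points are levels with exact 95% counting intervals, open triangles mark 0 UMIs drawn at 3 UMIs, and Chrna3 and Grik3 are separated from glia in one direction and Gria3 and Glrb in the other at both stages.

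The 2 glia classes were then compared to ask which subunits went with Prss56 within the Sox10-positive cells. At E11.5, 0 of 13 subunit genes were at least 2-fold higher in Prss56-positive glia, beside 1.47% of 10638 genes, and Grik5 and Grin1 were at least 2-fold lower, 15.4% beside 2.51%. At E12.5, Grik1, Grin3a and Grm8 were higher, 3 of 18 (16.7%) beside 2.24% of 12215 genes, and 1 of 18 was lower (5.56%), beside 2.49%. No gene was counted at both stages, and the shares over all genes were not matched for level. The level summed over the 64 genes gave ratios of 0.991 (0.894 to 1.10) and 1.38 (1.29 to 1.48). The median ratio over the subunit genes was 0.865 at E11.5 and 1.27 at E12.5, beside 1.01 for all genes at both. The summed level of 10 mesenchymal and pericyte genes was 186 CPM in Sox10-positive and 239 CPM in Prss56-positive glia at E11.5, and 469 and 576 CPM at E12.5, with 2 and then 3 of the 10 at 0 UMIs in Prss56-positive glia. Pdgfra was at 0 there at both stages. The part of such cells in the differences was not tested.

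Grik1, a kainate subunit, rested on the most UMIs among these. At E12.5 it had 100 UMIs in Prss56-positive glia (42.2 CPM, 34.4 to 51.4) and 76 in the others (13.9 CPM, 10.96 to 17.4), a ratio of 3.04 (2.23 to 4.15). At E11.5 the levels were 47.4 CPM (37.4 to 59.3) and 31.7 CPM (26.0 to 38.2), a ratio of 1.497 (1.10 to 2.02). The most UMIs in 1 cell were 18 of the 100 at E12.5. Grin3a, a modulatory NMDA subunit, stood at 5.91 and 2.01 CPM at E12.5 on 14 and 11 UMIs, a ratio of 2.94 (1.24 to 7.15), and shares its strand with Ppp3r2 inside it. Grm8 stood at 7.18 and 3.11 CPM on 17 UMIs each, a ratio of 2.31 (1.11 to 4.81). Grik5 at E11.5 lay at the limit, with a ratio of 0.499 (0.270 to 0.869), and the interval of Grin1, 0.424 (0.127 to 1.13), held 1. Much of the Grin1 level in Sox10-positive glia at E11.5 came from 1 cell, as given above.

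Gria3, and at E12.5 also Gria2, was higher in Prss56-positive glia by less than 2-fold. Gria3 stood at 58.5 CPM (47.4 to 71.6) against 34.9 CPM (28.9 to 41.7) at E11.5 and at 80.7 CPM (69.7 to 93.0) against 53.1 CPM (47.2 to 59.6) at E12.5, ratios of 1.68 (1.27 to 2.21) and 1.52 (1.26 to 1.83). Gria2 gave 0.832 (0.374 to 1.73) at E11.5 and 1.84 (1.51 to 2.25) at E12.5. The whole AMPA family gave 1.44 (1.12 to 1.84) and 1.59 (1.40 to 1.82). Glrb gave 0.865 (0.487 to 1.48) and 1.83 (1.30 to 2.56), and Gabrg3 1.27 (0.972 to 1.65) and 1.53 (1.16 to 2.002). For Grik4 the intervals held 1 at both stages.

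**Figure D4:**
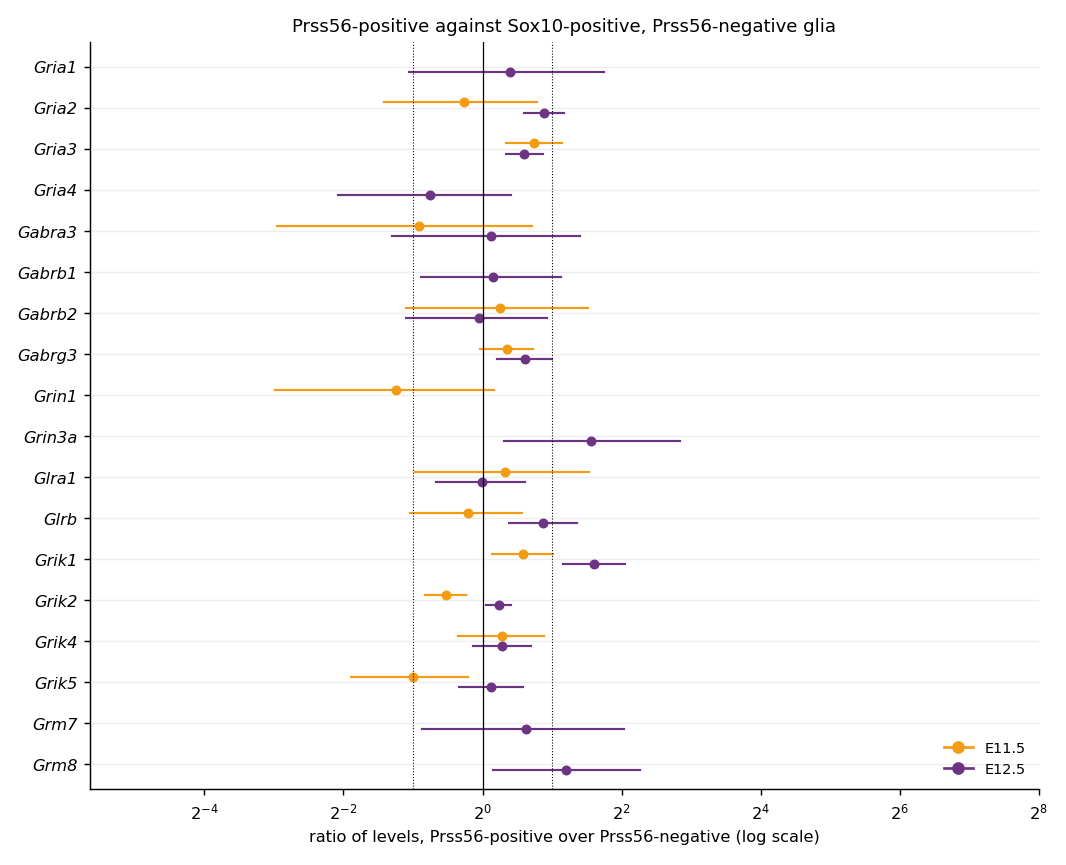
Ratio of the level in Prss56-positive glia to that in Sox10-positive, Prss56-negative glia (horizontal axis, log scale) for the reported genes with at least 20 UMIs in the pair. Points are ratios with exact 95% counting intervals and dotted lines mark 2-fold: Gria3 lies right of 1 at both stages at 1.68 and 1.52 and Grik1 reaches 3.04 at E12.5.

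Between the stages, Gria2 had the largest ratio of the genes compared in either glia class. Its level was 8.14 CPM (5.41 to 11.8) at E11.5 and 41.7 CPM (36.5 to 47.5) at E12.5 in Sox10-positive glia, a ratio of 5.13 (3.45 to 7.89). In Prss56-positive glia it was 6.78 CPM (3.38 to 12.1) and 76.9 CPM (66.1 to 88.9), a ratio of 11.3 (6.19 to 23.1), and in neurons 8.63 and 17.5 CPM, a ratio of 2.03 (1.27 to 3.41). Gria3 gave 1.52 (1.23 to 1.90), 1.38 (1.07 to 1.78) and 0.838 (0.386 to 2.01). The share of Gria2 in AMPA UMIs was 17.3% (11.8 to 24) and then 40.5% (36.4 to 44.7) in Sox10-positive glia, and 10% (5.10 to 17.2) and 46.8% (41.7 to 51.9) in Prss56-positive glia. Glrb, whose gene neighbours Gria2 on chromosome 3, was 1.05 (0.731 to 1.53) times as high at E12.5 in Sox10-positive glia and 2.23 (1.33 to 3.88) times in Prss56-positive glia.

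In neurons, 6 of 26 subunit genes (23.1%) were at least 2-fold higher at E12.5, beside 9.63% of 12511 genes, and 2 (7.69%) were lower, beside 2.77%. Neurons held 8910223 UMIs at E12.5 and 2317194 at E11.5, so rare genes reached the minimum mostly through the later library. Grm3, Grm5, Grm7, Grm8 and Gabrb1 had 8, 1, 1, 6 and 3 UMIs at E11.5 and passed it only through E12.5, where they were high. The 23.1% is therefore no measure of the subunit genes as a set. Under median-of-ratios scaling, or without mitochondrial and ribosomal protein genes in the total, these counts were 5 and 3. The higher genes were Gria2, Grm3, Grm5, Grm7, Grm8 and Gabrb1. Grm3 stood at 3.45 CPM (1.49 to 6.80) and then 25.4 CPM, a ratio of 7.35 (3.67 to 17.2), while Grm5 and Grm7 rested on 1 UMI each at E11.5 and the interval of Gabrb1, 2.77 (0.868 to 14.2), held 1. The lower genes were Chrna4, a nicotinic alpha subunit, with 8.2 and 1.68 CPM, and Gabrb2, with 3.45 and 1.46 CPM and an interval that held 1. Over all neurons together, Chrna3, Gabrg3 and Grik2 stayed close, with ratios of 1.12 (0.857 to 1.49), 0.833 (0.673 to 1.04) and 1.02 (0.829 to 1.25). Grik3 gave 1.91 (1.11 to 3.52).

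In Sox10-positive glia, 4 of 16 (25%) were higher at E12.5, beside 8.59% of 12252 genes, and 2 (12.5%) were lower, beside 1.93%. Glra1 stood at 4.94 and 13.2 CPM, a ratio of 2.67 (1.56 to 4.83), with Gria2, Grm8 (2.14, 0.758 to 7.42) and Gabrb1 (3.65, 1.40 to 12.1) the other higher genes. Grik1 was lower, with 31.7 and 13.9 CPM, a ratio of 0.439 (0.323 to 0.594), and so was Grin1. In Prss56-positive glia 5 of 10 (50%) were higher, beside 8.80% of 10550 genes, and 0 were lower, beside 1.88%. Both glia classes also held more UMIs at E12.5, so here too rare genes passed the minimum mostly through that stage. The 5 were Gria2, Grik2 (2.06, 1.69 to 2.53), Grik5 (2.61, 1.49 to 4.86), Glra1 (2.13, 1.02 to 4.86) and Glrb. Grik1 there gave 0.890 (0.655 to 1.22), unlike in the other glia, and the difference between the 2 ratios was not tested.

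**Figure D5:**
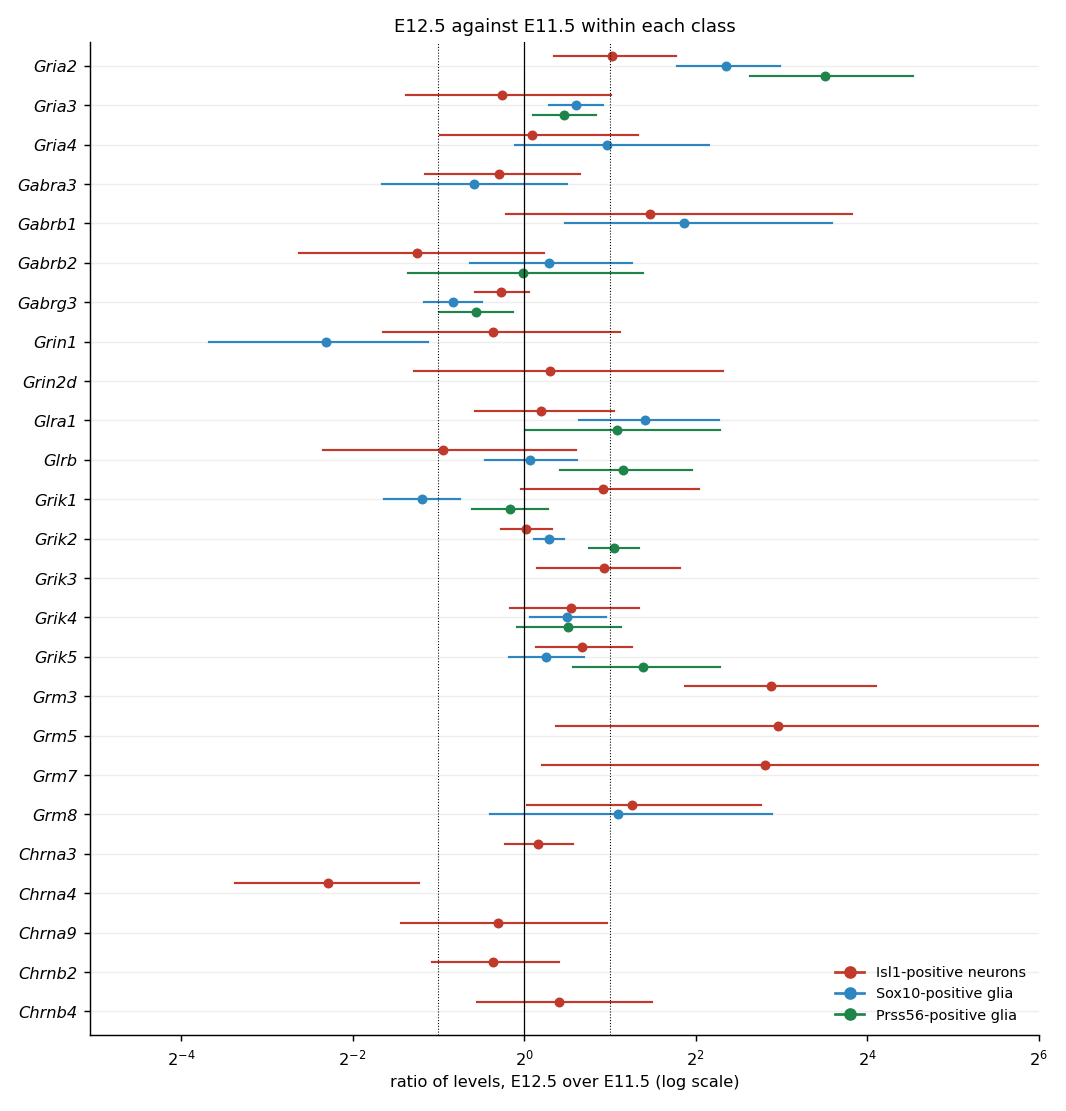
Ratio of the E12.5 level to the E11.5 level (horizontal axis, log scale) in each class for the reported genes with at least 20 UMIs over both libraries. Points are ratios with exact 95% counting intervals (cut at the edge of the axis) and dotted lines mark 2-fold: Gria2 lies at 2.03, 5.13 and 11.3 in neurons, Sox10-positive and Prss56-positive glia, and each class is 1 library per stage.

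Neurons with and without UMIs of Neurog1, a proneural factor of the later-born sensory lineages, were set apart, a split chosen after values were seen. At E12.5 the 909 neurons without Neurog1 held 4.54-fold (2.62 to 8.52) more Gria2 than the 409 with it (23.1 against 5.08 CPM), 3.16-fold (2.30 to 4.41) more Gabrg3 (51.5 against 16.3 CPM) and 2.45-fold (1.70 to 3.61) more Grm3 (31.0 against 12.7 CPM). The Grik2 ratio was 0.989 (0.810 to 1.21). At E11.5, with 64 and 138 neurons, the Gabrg3 ratio was 0.722 (0.447 to 1.13), on 38.3 and 53.1 CPM (42.5 to 65.5). In neurons with Neurog1, Gabrg3 was thus lower at E12.5 (11.9 to 21.8 CPM), which its ratio over all neurons does not show. At E11.5 Gria2 stood at 13.3 and 6.71 CPM on 9 and 11 UMIs, and Grm3 at 8.84 and 1.22 CPM on 6 and 2 UMIs. The part of the mix of these neurons in the stage ratios of all neurons was not tested. The median depths of the 2 sets were 6503 and 6442 UMIs at E12.5.

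A UMI of at least 1 of the 64 genes was found in 81.9% of neurons, 82.8% of Sox10-positive glia, 90.9% of Prss56-positive glia and 79.1% of the cells with collagen markers, which belong to none of the 3 classes, at E12.5. After each cell was thinned to 2000 UMIs, which 1272, 809, 366 and 234 cells allowed, these shares were 46.0% (43.2 to 48.8), 49.7% (46.2 to 53.2), 68.3% (63.3 to 73.0) and 51.3% (44.7 to 57.9). The interval of the neurons overlapped that of the cells with collagen markers. At E11.5 the thinned shares were 40.1% (33.3 to 47.2), 50.2% (44.3 to 56.0), 45.7% (36.4 to 55.2) and 16.7% (7.92 to 29.3), and the unthinned 88.1%, 87.9%, 90.5% and 64.8%. How much of this was free RNA was not tested.

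Genes that serve the receptors were read from 3 lists, to be set beside all genes, of which 11.2% were higher and 16.9% lower in neurons than in Sox10-positive glia at E11.5, and 13.5% and 20.1% at E12.5, with median ratios of 0.928 and 0.920. Of 40 genes for receptor assembly and anchoring, 5 of the 21 compared were at least 2-fold higher in neurons than in Sox10-positive glia and 1 was lower at E11.5, and 8 and 2 of 30 at E12.5, with median ratios of 1.01 and 1.08. Cacng4, an auxiliary subunit of AMPA receptors, stood at 107 CPM in neurons and 16.9 CPM in glia at E11.5 and at 92.5 and 14.8 CPM at E12.5, the opposite of the summed AMPA subunits. Of the AMPA genes compared at E11.5, Gria3 was at least 2-fold lower in neurons and Gria2 was not. Ric3, a chaperone of nicotinic receptors, stood at 7.30 and 0.915 CPM at E12.5. Of 26 genes for transmitter supply and clearance, 2 of 10 were higher and 2 lower at E11.5, and 2 and 4 of 12 at E12.5, with median ratios of 0.835 and 0.735. Slc17a6, the vesicular glutamate transporter of sensory neurons, stood at 48.3 and 0.291 CPM and then at 82.4 and 0.366 CPM. Slc1a3, a glial glutamate transporter, gave 25.8 CPM in neurons, 94.3 CPM in Sox10-positive glia and 208 CPM in Prss56-positive glia at E12.5. Glul, which turns glutamate into glutamine, gave 160.2, 152 and 501 CPM, and its ratio of Prss56-positive to Sox10-positive glia was 1.92 (1.67 to 2.20) and then 3.30 (3.02 to 3.61). Between the glia classes, 0 genes of this list differed 2-fold at E11.5. At E12.5, 2 were at least 2-fold higher and 3 lower in Prss56-positive glia, beside 2.24% and 2.49% of all genes compared. How many of the 26 genes were compared between the glia classes is not given here, so these counts have no share. For the assembly and anchoring list, 0 were higher and 1 lower at E11.5, and 1 and 1 at E12.5, also without a share.

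Of 14 receptor genes outside the naming rule, 2 of 5 were higher in neurons and 2 lower at E11.5, and 4 and 2 of 8 at E12.5, with median ratios of 1.33 and 3.64 over few genes, beside the same shares of all genes. P2rx3, the ATP-gated channel of nociceptors, stood at 46.2 and 66.8 CPM in neurons and under 1 CPM in Sox10-positive glia at both stages.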

How the data were processed

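Deposited gene-by-cell UMI counts of the E11.5 and E12.5 libraries were used. The authors made them with Cell Ranger (the file headers give 7.0.1) on mm39, and the counts are raw. The 64 genes and all lists were chosen with earlier results of these data known. Cells were kept by the study's filters: at most 10% mitochondrial UMIs, at least 2000 UMIs (1000 at E12.5), and a doublet score under 0.2 (scanpy 1.11.5), which removed 7 and 67 cells. Cells with Isl1 and Sox10 together (104 and 286) were kept out of the 3 classes. Levels have exact Poisson intervals, ratios exact conditional intervals and shares exact binomial intervals, with numpy 2.4.6 and scipy 1.17.1. Genes were named if they held 100 UMIs over the classes in a library, led their family or differed 2-fold between the glia classes. Others are named where they make up a count, after their values were seen. The ratio and interval code was tested on simulated data. Of the named genes, Grik1, Grik4, Grik5, Grin1, Gabrg3, Glra1, Glrb and Chrna3 overlap a counted gene on the other strand, and Grik2 and Grin3a on the same strand, and whether strand was used is not given in the sources used here. In all, 13 alternatives were planned and 1 was added. The Prss56-Cre library was not analysed here, and some genes, 1 of them among the 16, are not reported here by name.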

Additional observations from a re-analysis of the deposited data

Results flagged for a closer look

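Grik2 went in opposite directions between the glia classes at the 2 stages. The ratio of Prss56-positive to Sox10-positive glia was 0.694 (0.566 to 0.846) at E11.5 and 1.17 (1.04 to 1.33) at E12.5, and the difference between the stages was not tested.

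Several glutamate receptor genes stood higher in E12.5 cells with collagen markers, which belong to none of the 3 classes (249 cells), than in any of the classes. Grm3 stood at 58.1 CPM, Gria1 at 43.4 CPM, Grm7 at 25.9 CPM, Grm8 at 20.3 CPM and Gria4 at 18.2 CPM. In Isl1-positive neurons the levels were 25.4, 1.01, 3.03, 6.17 and 4.15 CPM in the same order. Gria1 was 42.9-fold (21.2 to 98.3) higher there than in neurons, and 1 cell held 10 of the 29 UMIs of Grm8. Grm3 was also high in these cells at E11.5, with 18 UMIs in 54 cells (39.8 CPM).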

How the results depend on the processing

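Under the 9 alternatives in cells or scaling, 57 ratios of named genes could be computed (55 with 2 UMIs of the gating gene). Between 0 and 4 of 21 counted differences crossed the threshold. A ratio near 1, such as that of neurons to glia for Grik5 at E12.5, could change its side of 1 with the scaling. With double-positive cells in both classes 12 of the 57 moved outside their counting interval, beside 0 or 1 under each of the others. With 1 library per stage no replicate could be left out, and no paired analysis was possible because the result comes from no test. The summed ratio at E12.5 was 0.993 with median-of-ratios scaling, 0.820 without mitochondrial and ribosomal protein genes in the total, 0.769 as a mean of per-cell CPM and 0.923 with double-positive cells in both classes. With double-positive cells, genes higher in neurons at E11.5 numbered 7, genes lower in Prss56-positive glia 4 at each stage, and genes lower in neurons at E12.5 than E11.5 numbered 1. Genes lower in Prss56-positive glia at E11.5 numbered 1 with per-cell means, with 2 UMIs of the gating gene, with Prss56-positive cells regardless of Sox10, with 3000 UMIs per cell, and with a minimum of 50 UMIs, and 0 at a ratio of 3. With 2 UMIs of the gating gene, 0 were lower in Prss56-positive glia at E12.5 and 1 was lower in neurons at E12.5 than E11.5, which was also 1 when neurons had to hold 2 neuronal genes, an alternative chosen after seeing the data. Without the 20-UMI minimum, 15 genes were higher and 14 lower in neurons than in glia at E11.5, 21 and 12 in the later library, 7 and 14 in Prss56-positive glia at E11.5, 11 and 9 in those glia at E12.5, and 27 and 7 in neurons at E12.5 against E11.5. A 0 on one side counted as past any ratio there, so these counts include genes at 1 UMI against 0. With 50 UMIs, 2 were higher in neurons than in glia at E11.5, 1 higher and 0 lower in Prss56-positive glia at E12.5, and 3 higher and 0 lower in neurons at E12.5 against E11.5. At a ratio of 1.5, 1 gene was higher and 4 lower in Prss56-positive glia at E11.5, and 8 and 2 at E12.5. At a ratio of 3, 3 were lower in neurons than in glia at each stage, 1 was higher in Prss56-positive glia at E12.5, and 3 higher and 1 lower in neurons at E12.5 against E11.5. The share over all genes under each of these alternatives is not given here, so these counts cannot be set beside it. Low counts limit the rest: 35 of the 64 genes stayed under 20 UMIs over the 3 classes in both libraries, and the part of depth in this was not tested.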

Other observations

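Cells with both Isl1 and Sox10 held 243.5 CPM (217.7 to 271.5) of the 64 genes at E11.5 and 338 CPM (313.8 to 363.5) at E12.5. These totals lay below those of neurons and Sox10-positive glia, with overlap of the intervals of neurons at both stages. Their nicotinic level lay between those 2 classes, at 28.5 and 22.3 CPM, as did their AMPA level, at 21.7 and 49.7 CPM. Kainate, glycine receptor and metabotropic levels also lay between at both stages. NMDA subunits lay below both classes at both stages, at 5.24 and 6.04 CPM, with overlapping intervals. GABA-A subunits lay below both at E11.5, at 56.9 CPM, with overlap of the interval of Sox10-positive glia. At E12.5 they lay between the 2 classes, at 72.1 CPM. Whether these cells are doublets was not tested.

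Of the nicotinic genes of the muscle receptor, Chrna1, Chrnd and Chrng gave 1 UMI each in E12.5 neurons and Chrnb1 gave 9 UMIs (1.01 CPM).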
